A study of Mus musculus with 12 samples.

Results

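The 35 genes described here encode the nuclear receptor PPARA and proteins that bind, activate, transport and oxidize fatty acids, or make ketone bodies from them, in the hepatocyte. They were taken from a list of 35 symbols, and a gene was kept where at least 3 libraries held 10 or more reads that count both strands together. All 35 were found, passed that rule and entered the tests, out of 13815 genes of the series that pass the same rule. RNA was measured by bulk sequencing in primary mouse hepatocytes in culture, in 4 groups of 3 replicate libraries. Control cells received neither a scavenger nor FAC. FAC cells received FAC, a name that the labels do not spell out, with no pretreatment. Lip-1+FAC cells were pretreated on day 2 of culture with liproxstatin-1, described by the labels as scavenging lipid reactive oxygen species (ROS), and MT+FAC cells with Mito-TEMPO, described as scavenging mitochondrial ROS, before FAC. No group had a scavenger without FAC, so the effect of a scavenger by itself is not measured. The labels give no strain, sex, age, dose or duration, and do not say whether replicates came from separate animals or cultures. P-values therefore measure the spread between these libraries, which may be technical.

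Fatty acids enter the liver cell through transport proteins, are joined to coenzyme A by acyl-CoA synthetases, and long chains pass into the mitochondrion as carnitine esters, with CPT1A as the main control point. Inside, the beta-oxidation spiral removes acetyl-CoA units, electrons leave through the electron transfer flavoprotein, and acetyl-CoA can be turned into ketone bodies, while peroxisomes shorten very long chains and CYP4A enzymes start oxidation from the omega end. PPARA, with its partner RXR, binds direct repeats in the DNA near many of these genes and raises their transcription when fatty acids are plentiful, as in fasting.

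Gene-assigned reads ranged from 22991598 to 31683376 per library, except 52529278 in FAC replicate 2, whose deposited file is marked as combined without stating what was combined. The member with the fewest reads was Acot1, with 11 in its lowest library, followed by Etfb with 31 and Bdh1 with 32. A list of 10 hepatocyte markers, among them Alb and Hnf4a, summed to between 49288 and 59965 CPM (gene-assigned counts scaled to a common library size) in the 12 libraries, lowest in the FAC group at 49288 to 52507. Most of that sum was transferrin, and the markers did not move together: in FAC transferrin, Cps1 and Tat were lower, Apob and Cyp2e1 were higher, and Alb differed by 0.04 on the log2 scale. Markers of other liver cells moved with the groups. A macrophage list of 8 genes summed to 223.7 to 255.6 CPM in control, 289.8 to 322.2 in FAC, 116.8 to 147.3 in Lip-1+FAC and 143.2 to 174.7 in MT+FAC, nearly all of it Cd68. Clec4f went the other way, lower in FAC than in control (-1.08) and higher in MT+FAC than in FAC (1.16), at no more than 1.495 CPM, and Ptprc was at 0 to 0.4 CPM. A cholangiocyte list of 5 genes summed to 20.93 to 23.79, 57.98 to 74.33, 12.39 to 15.66 and 17.12 to 20.08 CPM in the same order, mostly Sox9. Krt19, Krt7 and Epcam moved with it, at means of 9.96, 0.975 and 1.26 CPM in FAC against 3.96, 0.419 and 0.405 in control, and Cftr was at 0 to 0.0715 CPM. A stellate cell list of 7 genes was also highest in FAC, at 20.9 to 22.21 CPM against 10.22 to 17.29 in the other libraries, which came from Reln (16.1 CPM against 7.46 in control), while Dcn was lower in FAC (-0.60). An endothelial list of 7 genes, mostly Stab2, lay at 34.2 to 37.06 CPM in control and FAC and at 26.6 to 30.83 in the 6 pretreated libraries. Stab2 was lower than in FAC with liproxstatin-1 (-0.57) and Mito-TEMPO (-0.46). Tek went the other way, higher than in FAC with liproxstatin-1 (0.97) and Mito-TEMPO (0.905), at no more than 1.71 CPM. Pecam1, Kdr, Lyve1 and Cdh5 did not pass in these comparisons. Reads of mitochondrially encoded genes made up 0.954% to 1.23% of counts in control and FAC and 0.639% to 0.798% in the pretreated groups. Their part in the results below was not tested. In bulk RNA, fewer cells of a type and less RNA per cell cannot be told apart.

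In control cells the levels of the 35 transcripts per kilobase of exon covered a wide range. Acaa2, the last enzyme of the mitochondrial spiral, was highest at 348 ± 4.87 CPM per kb (SD, n = 3). Etfa, the alpha subunit of the electron transfer flavoprotein, followed at 145 ± 5.04, and Fabp1, the main fatty acid binding protein of the liver cytosol, at 118 ± 32.2, which lies within its own spread of Etfa. This order leaves aside the undercounting of Acadvl described next. On these counts the acyl-CoA dehydrogenases for long, very long and medium chains lay close together. Acadl was at 82.9 ± 3.13, Acadvl at 81.7 ± 1.65 and Acadm at 81.2 ± 2.37 CPM per kb, which did not differ beyond their spread. Acadvl is undercounted, since 42.9% of its exonic length is shared with Dvl2. In control the sum of the deposited stranded columns held 2.16 times as many Acadvl reads, with any Dvl2 reads of the shared length. Its closeness to Acadl and Acadm and its place below Etfa are therefore uncertain. Cpt1a was far lower than Cpt2, at 12.2 ± 1.12 against 48.6 ± 0.665 CPM per kb. The lowest levels were those of Cyp4a14 at 1.91 ± 0.0223, Bdh1 at 0.575 ± 0.141 and Acot1 at 0.445 ± 0.082 CPM per kb. Lengths count every annotated exon of a gene, so a gene with many rarely used exons appears lower than its main transcript is. Etfb appeared at 4.43 ± 3.36 CPM per kb, but 58.2% of its exonic length is shared with Gm45233 and Mir7051, and reads that fall on more than 1 gene are not counted. Its 12 values ran from 1.311 CPM in Lip-1+FAC replicate 3 to 9.668 in control replicate 3, and its difference between FAC and control was -0.14 ± 0.56 on the log2 scale (SE). None of its comparisons passed, except that MT+FAC against FAC passed at -0.73 in a fit on those 6 libraries alone.

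**Figure D1:**
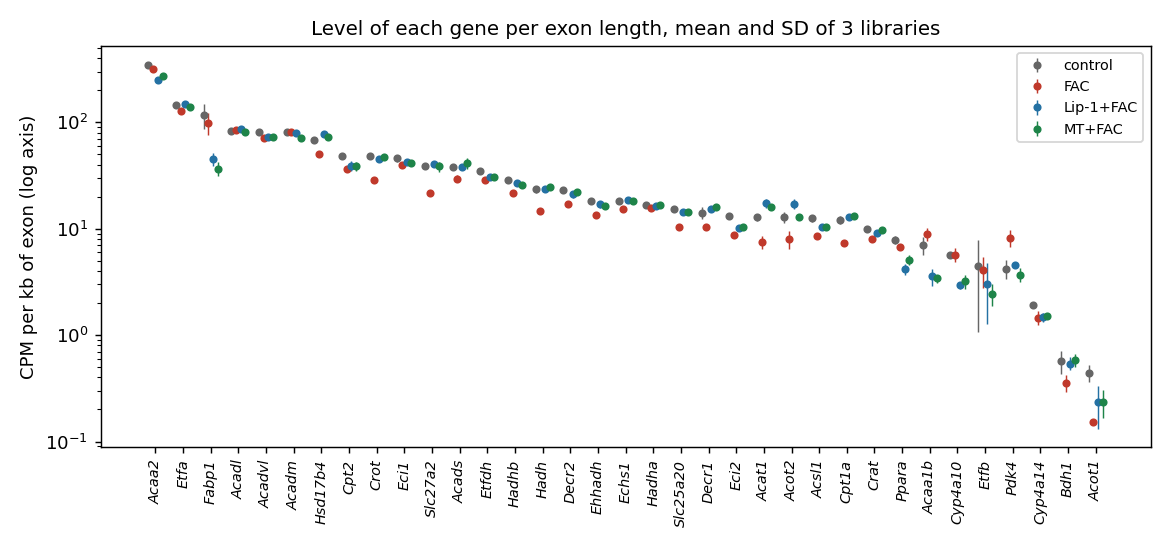
Level of each of the 35 genes in CPM per kilobase of exon on a log axis, with 1 point per group mean and bars for the SD over 3 libraries. Acaa2 stands highest and Acot1 lowest in all 4 groups.

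The DNA just upstream of the members was examined because PPARA and RXR bind a direct repeat of AGGTCA with 1 base between the copies. RefSeq promoter windows of 300 bases (250 before and 50 after a transcription start, build GRCm38.p6) were found for 28 of the 35 genes, 30 windows in all. The windows were searched on both strands for AGGTCA, any base N and AGGTCA again, with at most 2 mismatches outside the N. A match was present in 4 of 30 windows (13.3%), against 1268 of 32851 windows of all genes (3.86%), and at most 1 mismatch in 1 of 30 (3.33%) against 0.554%. The 30 windows are not all separate, since those of Hadha and Hadhb share 228 bases and Acsl1 and Bdh1 have 2 windows each. The windows of all genes include genes not expressed here, and the difference was not tested. The 4 matches are printed 5′ to 3′ on the strand of the gene, with the matched bases in capitals.
Fabp1, chr6:71199792-71199844, plus strand: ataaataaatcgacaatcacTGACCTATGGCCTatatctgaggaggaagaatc
Echs1, chr7:140116472-140116524, minus strand: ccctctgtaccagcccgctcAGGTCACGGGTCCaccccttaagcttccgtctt
Etfa, chr9:55512288-55512340, minus strand: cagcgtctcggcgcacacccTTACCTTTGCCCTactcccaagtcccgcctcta
Slc25a20, chr9:108662134-108662162, plus strand: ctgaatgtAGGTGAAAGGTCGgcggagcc
The Fabp1 match has 1 mismatch, lies on the opposite strand and covers bases -67 to -55 from the start. Those of Echs1 (-83 to -71, same strand as the gene) and Etfa (-77 to -65, opposite strand) have 2 mismatches each, and that of Slc25a20 has 2 and lies 7 to 19 bases past the start. A match is a description of the letters and not a measured binding site, and the absence of one concerns only this window. These 4 genes did not move alike: Echs1, Etfa and Slc25a20 were lower in FAC, and Fabp1 was lower with either scavenger, as described below.

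FAC alone lowered most of the 35 transcripts. Between FAC and control, 24 genes were lower, 1 was higher and 10 did not pass an adjusted p of 0.05, in the quasi-likelihood F test of edgeR. Of all 13535 genes tested, 36.6% were called in this comparison, 17.5% higher and 19.1% lower. The median log2 fold change of the 35 genes was -0.388, against -0.006 over all genes tested. For 27 of the 35 genes the 3 FAC libraries did not overlap the 3 control libraries, against 46.2% of all genes. The summed level of the 35 transcripts was 4106 to 4162 CPM in control and 3326 to 3382 in FAC.

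**Figure D2:**
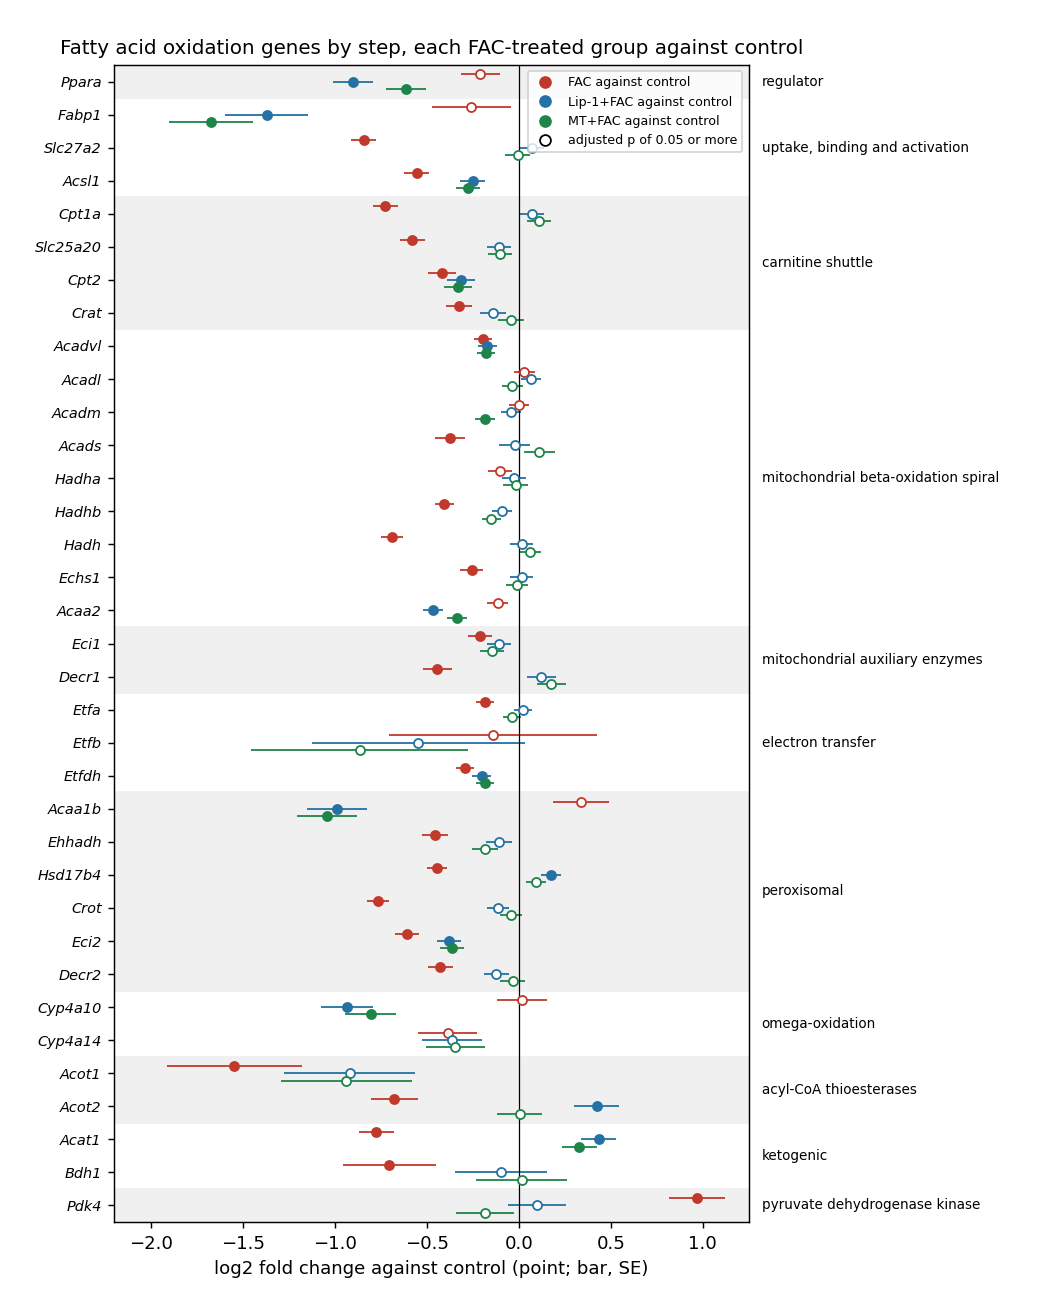
Log2 fold change against control (points, with bars for the SE) of each gene in FAC, Lip-1+FAC and MT+FAC, ordered by metabolic step. Filled points passed an adjusted p of 0.05. In FAC, 24 of the 35 genes lie to the left of 0 and pass, and 1, Pdk4, lies to the right and passes.

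At the entry to the pathway, Slc27a2, a very long chain acyl-CoA synthetase and transport protein, read 143.9, 145.3 and 147.9 CPM in control and 80.23, 83.46 and 79.58 in FAC. The groups were far apart, with a log2 fold change of -0.84 ± 0.068 (SE, adjusted p = 5.33e-08). Acsl1, the main long-chain acyl-CoA synthetase of liver, fell by 0.56 on the log2 scale, from 130.6 ± 10.1 to 88.79 ± 2.98 CPM (SD, n = 3). Fabp1 (ENSMUSG00000054422, chr6:71199827-71205023) read 85.22, 51.54 and 58.48 CPM in control and 51.88, 43.44 and 68.35 in FAC. Its groups overlapped, and the difference of -0.26 ± 0.22 did not pass (adjusted p = 0.393).

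All 4 genes of the carnitine shuttle fell. Cpt1a (ENSMUSG00000024900, chr19:3322334-3385733), which makes acylcarnitines at the outer mitochondrial membrane, read 88.73, 102.8 and 87.41 CPM in control and 55.31, 56.92 and 56.4 in FAC. Every FAC library lay below every control library, with a log2 fold change of -0.73 ± 0.067 (adjusted p = 2.41e-07). Slc25a20, the carrier that exchanges acylcarnitine for carnitine, changed by -0.58, Cpt2, which restores the acyl-CoA inside, by -0.42, and Crat, which acts on acetyl groups, by -0.33.

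In the mitochondrial spiral 5 of 9 genes fell and none rose. Hadh, the dehydrogenase for short and medium hydroxyacyl chains, had the largest fall of the 9, at -0.69 ± 0.062, from 107.1, 125.8 and 118.4 CPM to 71.61, 74.1 and 72.07. Hadhb changed by -0.41, the short-chain dehydrogenase Acads by -0.38, the enoyl-CoA hydratase Echs1 by -0.26 and Acadvl by -0.20. The other 4 had small differences that did not pass: Acadl 0.03 ± 0.056, Acadm 0.00 ± 0.054, Hadha -0.10 ± 0.067 and Acaa2 -0.12 ± 0.055. The Acaa2 libraries nevertheless did not overlap, at 519.3 to 534.1 CPM in control and 467.2 to 509 in FAC. Reads of Acadvl are undercounted, since 42.9% of its exonic length is shared with Dvl2 on the other strand. The sum of the deposited stranded columns held 2.13 to 2.36 times as many reads. Since the libraries keep no strand, that sum also counts for Acadvl any Dvl2 reads in the shared length. With offsets for GC content and gene length the Acadvl difference was -0.09 and did not pass, whereas Hadha passed at -0.19.

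Hadha and Hadhb encode the subunits of the mitochondrial trifunctional protein, and their transcription starts face away from each other on chromosome 5. The bases that lie outside the transcripts of both genes are shown because the pair shares them as upstream DNA.
Hadha and Hadhb, chr5:30155163-30155247, plus strand: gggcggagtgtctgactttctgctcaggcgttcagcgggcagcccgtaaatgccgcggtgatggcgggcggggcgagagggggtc
These 85 bases are from GRCm38.p6. The log2 ratio of Hadhb to Hadha was 0.411, 0.286 and 0.420 in the control libraries and -0.106, 0.166 and 0.149 in FAC. All 3 FAC ratios lay below all control ratios, with a difference of -0.302 and an exact two-sided permutation p of 0.1, the smallest that 3 against 3 libraries allow. The ratio was 0.306, 0.375 and 0.241 in Lip-1+FAC, a difference of 0.238 from FAC (p = 0.1, exact), and 0.179, 0.196 and 0.343 in MT+FAC, a difference of 0.170 (p = 0.1, exact). Between the scavengers the difference of -0.068 gave p = 0.3 in the same exact test. Of the transcript of Hadhb, 69.7% matches Gm13910 at 99.8% identity and 69.6% matches Gm9108 at 97.6%, so that its reads may be split.

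The enzymes that handle double bonds in mitochondria both fell: Decr1, the 2,4-dienoyl-CoA reductase, by 0.44 and Eci1, the enoyl-CoA isomerase, by 0.21 on the log2 scale. The Eci1 call was lost without control replicate 3 (-0.15), without FAC replicate 1 (-0.21) and with GC and length offsets (-0.15). In electron transfer, Etfdh, which passes electrons to ubiquinone, changed by -0.29 and Etfa by -0.18. The Etfa call was lost with GC and length offsets (-0.12).

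Of the 6 peroxisomal genes 5 fell. Crot, which makes medium-chain acylcarnitines for export to mitochondria, had the largest change, -0.77 ± 0.06, from 249.9, 266.5 and 279.2 CPM to 149.9, 151.1 and 166.5. Eci2, a peroxisomal isomerase, changed by -0.61. Ehhadh, the bifunctional enzyme of the straight-chain route, read 55.36, 52.44 and 56.75 CPM in control and 39.46, 39.8 and 40.86 in FAC, a change of -0.45 ± 0.071 with no overlap. Hsd17b4, the bifunctional enzyme of the branched-chain route, also changed by -0.45, and the reductase Decr2 by -0.43. Acaa1b, a peroxisomal thiolase (ENSMUSG00000010651, chr9:119148023-119157093), read 16.92, 11.67 and 12.94 CPM in control and 17.46, 15.11 and 20.03 in FAC. The difference of 0.34 ± 0.15 did not pass (adjusted p = 0.0956), but passed at 0.51 without control replicate 1, at 0.41 on the stranded columns and at 0.35 with no filter on low counts. Its transcript is 96.6% identical to the more abundant Acaa1a over 84.5% of its length, so that reads shared by both copies are not counted for either. Acaa1a itself changed by -0.21, a call lost without control replicate 2 (-0.17) or FAC replicate 1 (-0.18).

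Neither omega-oxidation gene passed in FAC. Cyp4a10, a fatty acid omega-hydroxylase and a common marker of PPARA activity, read 11.79, 11.25 and 12.59 CPM in control and 13.77, 10.36 and 12.07 in FAC, a difference of 0.02 ± 0.13. Cyp4a14 read 4.998, 4.989 and 4.893 in control and 4.457, 3.447 and 3.513 in FAC. Those groups did not overlap, the difference was -0.39 ± 0.16 (adjusted p = 0.0655), and it passed at -0.51 without FAC replicate 1. Cyp4a10 is 97.2% identical to Cyp4a32 and 96.1% to Cyp4a31 over 72.5% and 75.5% of its transcript, and its counts are uncertain to that extent.

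Both acyl-CoA thioesterases, which release free fatty acids from coenzyme A, fell. Acot1, the cytosolic form, had the largest fall of the 35 genes, -1.55 ± 0.37 (adjusted p = 0.00285), from 1.751, 2.063 and 1.421 CPM to 0.5846, 0.5937 and 0.6056. These levels rest on few reads. Acot2, the mitochondrial form and 95.1% identical over 56.1% of the Acot1 transcript, read 27.64, 31.59 and 25.22 CPM in control and 17.03, 21.07 and 14.29 in FAC, a change of -0.68 ± 0.13 without overlap.

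Of the ketogenic members, Acat1, the mitochondrial acetoacetyl-CoA thiolase, read 44.21, 47.75 and 52.13 CPM in control and 24.59, 27.5 and 32.22 in FAC. The groups were separate and the change was -0.78 ± 0.096 (adjusted p = 6.69e-06). Bdh1, which converts acetoacetate to 3-hydroxybutyrate, read 1.623, 2.401 and 2.683 CPM in control and 1.169, 1.321 and 1.655 in FAC. These groups overlapped, the change was -0.70 ± 0.26 (adjusted p = 0.0376), and the call was lost without control replicate 2 (-0.65), control replicate 3 (-0.55), FAC replicate 1 (-0.60) or FAC replicate 2 (-0.67).

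Ppara (ENSMUSG00000022383, chr15:85734983-85802819) read 33.02, 27.57 and 29.91 CPM in control and 27.15, 26.74 and 24.18 in FAC. All FAC libraries were just below the controls, and the difference of -0.21 ± 0.11 did not pass (adjusted p = 0.13). Pdk4, a kinase that shuts off pyruvate dehydrogenase and so spares pyruvate when fat is burned, is a PPARA target and was the only member that rose. It read 17.13, 15.94 and 11.44 CPM in control and 34.56, 28.59 and 23.98 in FAC, a 1.96-fold rise (log2 0.97 ± 0.15, adjusted p = 0.000119) with no overlap.

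With liproxstatin-1 before FAC, 18 of the 35 genes were higher than in FAC alone and 6 were lower. Over all genes 39.9% were called in this comparison, 20.7% higher and 19.2% lower, and the median of the 35 was 0.225 on the log2 scale against 0.001 over all. With Mito-TEMPO, 19 were higher and 7 lower, where 40.9% of all genes were called, 21.2% higher and 19.7% lower, and the median was 0.249 against -0.001. The groups did not overlap for 28 and 29 of the 35 genes, against 50.8% and 52.9% of all genes. These comparisons share the FAC libraries with the comparison of FAC with control, so a low or high FAC value by chance moves both. For the genes given library by library the level in control is therefore given as well. Some other genes are given only as log2 fold changes.

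All 18 genes raised with liproxstatin-1 were among the 24 lowered by FAC, and so were all 19 raised with Mito-TEMPO. This count cannot be read as independent, given the shared libraries. Slc27a2 returned to 158.7, 145.8 and 154.8 CPM with liproxstatin-1, within the control values or above them. With Mito-TEMPO it read 163.1, 138.2 and 133.9, on both sides of the control values. Its log2 fold change from FAC was 0.92 ± 0.068 with liproxstatin-1 and 0.84 ± 0.068 with Mito-TEMPO. Cpt1a reached 96.2, 94.79 and 101.7 CPM with liproxstatin-1 and 99.73, 97.34 and 104.1 with Mito-TEMPO, changes of 0.80 ± 0.067 and 0.84 ± 0.067. These values overlap the control libraries. Hadh changed by 0.70 and 0.75, Crot by 0.65 and 0.73, Hsd17b4 by 0.62 and 0.54, and Decr1 by 0.56 and 0.62, with liproxstatin-1 and Mito-TEMPO respectively.

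**Figure D3:**
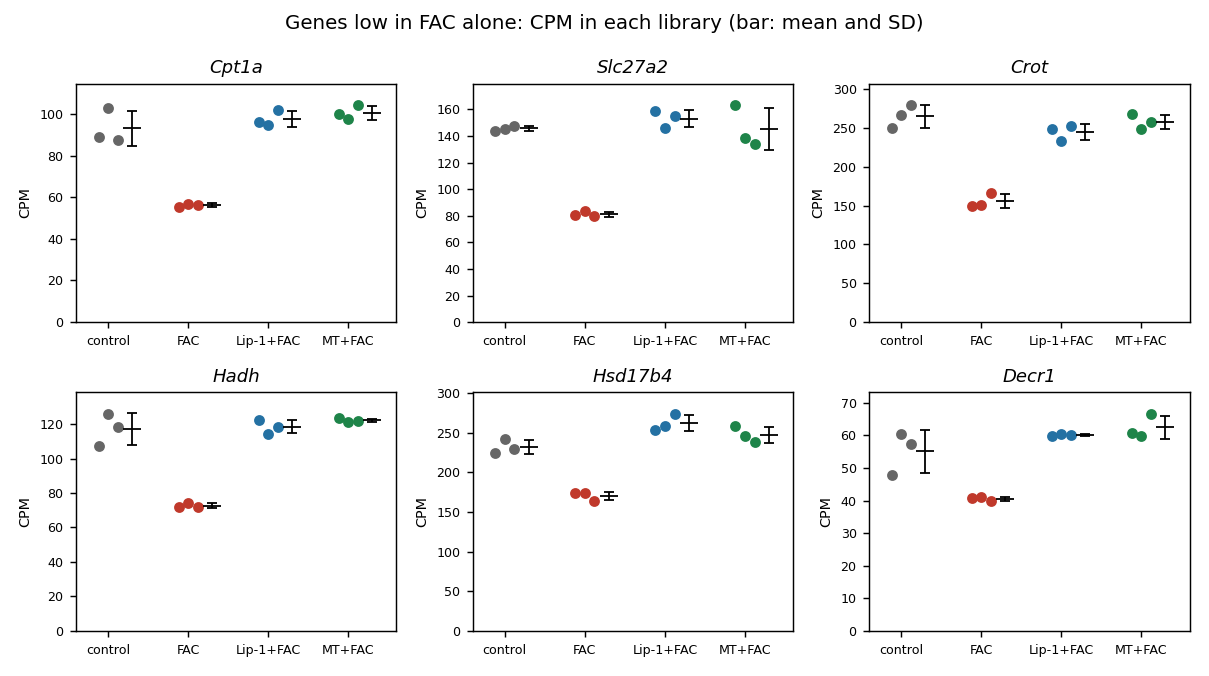
CPM in each library (points) with the mean and SD of each group for Cpt1a, Slc27a2, Crot, Hadh, Hsd17b4 and Decr1. In every panel the 3 FAC libraries lie below all other libraries, and the range of each pretreated group overlaps that of the control libraries or lies above it.

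Smaller rises were measured along the rest of the route, given here first with liproxstatin-1 and then with Mito-TEMPO. Slc25a20 changed by 0.47 and 0.48 and Acsl1 by 0.30 and 0.28. Every pretreated library of Slc25a20, at 65.26 to 72.28 CPM, lay below the control libraries at 73.48 to 77.51. Its differences from control of -0.11 and -0.10 did not pass. In the spiral Acads changed by 0.35 and 0.49, Hadhb by 0.31 and 0.26, and Echs1 by 0.27 and 0.25. Among the peroxisomal genes Decr2 changed by 0.30 and 0.39 and Eci2 by 0.23 and 0.24. Ehhadh read 48.25, 49.04 and 55.4 CPM and then 47.88, 50.35 and 46.63, changes of 0.35 ± 0.071 and 0.27 ± 0.071 from FAC, all above the FAC libraries. Etfa changed by 0.21 and 0.14, and Crat by 0.18 and 0.28. The Lip-1+FAC libraries of Crat, at 47.25 to 49.65 CPM, lay below the control libraries at 50.07 to 57.32. That difference from control of -0.14 did not pass. Several of the rises from FAC are marginal. The Crat call with liproxstatin-1 (adjusted p = 0.0487) was lost without FAC replicate 1 (0.15), FAC replicate 3 (0.19) or any of the Lip-1+FAC replicates (0.18, 0.21 and 0.17), with RLE scaling (0.18) and with DESeq2 (0.18). The Etfa call with Mito-TEMPO was lost without FAC replicate 1 (0.13) or 2 (0.14) or MT+FAC replicate 1 (0.12) or 2 (0.13). With GC and length offsets Eci2 no longer passed (0.10 and 0.15), nor did Ehhadh with Mito-TEMPO (0.15).

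Of the ketogenic pair, Acat1 had the largest rise of the 35 genes with either scavenger, to 71.46, 59.91 and 63.14 CPM with liproxstatin-1 (1.21 ± 0.096, adjusted p = 4.25e-08) and to 63.6, 58.37 and 59.03 with Mito-TEMPO (1.10 ± 0.096, adjusted p = 1.61e-07). All 6 pretreated libraries lay above all control libraries. Bdh1 read 2.074, 1.823 and 2.411 CPM with liproxstatin-1, a difference of 0.61 ± 0.26 that did not pass (adjusted p = 0.0665), and 2.563, 1.949 and 2.288 with Mito-TEMPO, a change of 0.72 ± 0.25 (adjusted p = 0.0296). The second was lost without FAC replicate 1 (0.62) or 2 (0.69) or MT+FAC replicate 1 (0.61) or 3 (0.72), and the first passed without FAC replicate 3 (0.74).

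Of the thioesterases, Acot2 rose to 41.37, 38.1 and 33.67 CPM with liproxstatin-1 (1.10 ± 0.12), all above control, and to 30.07, 26.26 and 28.41 with Mito-TEMPO (0.68 ± 0.13), within the control range. Acot1 read 1.055, 1.215 and 0.4652 CPM with liproxstatin-1 and 0.6876, 0.8626 and 1.209 with Mito-TEMPO. Its differences from FAC, 0.63 ± 0.38 and 0.61 ± 0.38, did not pass, and all 6 values lay below the lowest control library. Whether Acot1 and Acot2 differ in their response was not tested.

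**Figure D4:**
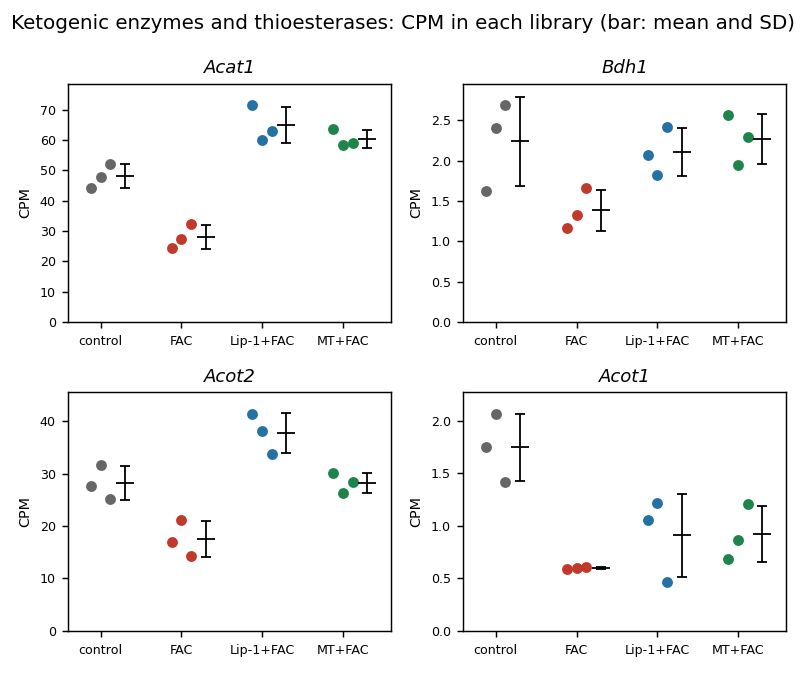
CPM in each library (points) with the mean and SD of each group for Acat1, Bdh1, Acot2 and Acot1. Acat1 is lowest in the 3 FAC libraries and highest in the 6 pretreated libraries, and Bdh1 and Acot1 stay under 3 CPM throughout.

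Cpt2, Etfdh and Acadvl were lowered by FAC, did not pass as higher than FAC with either scavenger, and passed as lower than control. Cpt2 read 115 to 118.1 CPM in control, 81.66 to 91.16 in FAC, 86.13 to 103.7 in Lip-1+FAC and 85.28 to 101.3 in MT+FAC. Its differences from FAC were 0.10 ± 0.076 and 0.08 ± 0.076, and from control -0.32 ± 0.076 and -0.33 ± 0.076, with liproxstatin-1 and Mito-TEMPO. Etfdh differed from FAC by 0.09 and 0.11, which did not pass, and from control by -0.20 and -0.18. Acadvl differed from FAC by 0.02 with either scavenger and from control by -0.17 and -0.18. On the stranded columns, which also count Dvl2 reads of the shared length, Acadvl was higher with Mito-TEMPO than in FAC (0.14, adjusted p = 0.0491). With GC and length offsets the difference of Cpt2 from control with liproxstatin-1 was -0.19 and did not pass. The differences of Acadvl from control were lost with those offsets (-0.05 and -0.11) and on the stranded columns (-0.10 and -0.06). They were also lost without control replicate 1 (-0.16 and -0.17), control replicate 3 (-0.16 and -0.17), Lip-1+FAC replicate 3 (-0.15), MT+FAC replicate 2 (-0.17) or MT+FAC replicate 3 (-0.17). That of Etfdh with Mito-TEMPO was lost without MT+FAC replicate 1 (-0.18). Eci1 differed from FAC by 0.11 and 0.07, which did not pass, but with GC and length offsets the first was 0.20 and passed (adjusted p = 0.0136).

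A further set moved the other way. Ppara, Fabp1, Acaa1b, Cyp4a10 and Acaa2 were not called in FAC but were lower with either scavenger, both than in FAC and than in control. In the same libraries 5 of the 10 hepatocyte markers were also lower than in FAC with either scavenger, Alb by -0.24 and -0.21, Ttr by -0.47 and -0.49, Apoa1 by -0.66 and -0.57, Serpina1a by -1.34 and -1.38 and Cyp2e1 by -1.66 and -1.49, with liproxstatin-1 and Mito-TEMPO. Transferrin and Cps1 were higher. Their part in the fall of the 5 members was not tested. Ppara read 14.01, 16.84 and 17.64 CPM in Lip-1+FAC and 17.41, 21.37 and 20.38 in MT+FAC, below every control and FAC library. The changes from FAC were -0.69 ± 0.11 (adjusted p = 6.72e-05) and -0.40 ± 0.11 (adjusted p = 0.00606), and those from control -0.90 ± 0.11 and -0.61 ± 0.11. Fabp1 read 26.93, 27.24 and 21.06 CPM in Lip-1+FAC and 22.82, 21.02 and 17.01 in MT+FAC, again below all 6 other libraries. It changed by -1.11 ± 0.22 and -1.42 ± 0.23 from FAC, and by -1.37 ± 0.23 and -1.68 ± 0.23 from control, the largest falls from control among the 35 genes.

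Acaa1b read 7.168, 5.612 and 8.162 CPM in Lip-1+FAC and 7.282, 6.166 and 6.65 in MT+FAC. It changed by -1.33 ± 0.16 and -1.38 ± 0.16 from FAC and by -0.99 ± 0.16 and -1.04 ± 0.16 from control, whereas its near copy Acaa1a changed by 0.19 and 0.29 from FAC. The first of these Acaa1a calls was lost without FAC replicates 1 (0.18) or 3 (0.19) or Lip-1+FAC replicates 1 (0.14) or 3 (0.19). Cyp4a10 read 5.749, 6.184 and 6.725 CPM in Lip-1+FAC and 6.47, 7.891 and 5.959 in MT+FAC, changes of -0.95 ± 0.14 and -0.82 ± 0.14 from FAC. All 6 values lay below the other libraries. Acaa2 fell by 0.35 and 0.22 from FAC, and from 527 ± 7.38 CPM in control to 381.7 ± 23 and 416.9 ± 14.2 (SD, n = 3). With GC and length offsets its difference from FAC with Mito-TEMPO was -0.09 and did not pass, and with the replicate number as a block added to them the difference with liproxstatin-1 was -0.17 (adjusted p = 0.0637). Acadm fell with Mito-TEMPO, by 0.18 from FAC and by 0.19 from control. With liproxstatin-1 it differed from FAC by -0.04, which did not pass, and with GC and length offsets it passed at -0.17 (adjusted p = 0.0164). The call against FAC was lost without MT+FAC replicate 3 (-0.16), and the call against control without control replicate 1 (-0.17), control replicate 3 (-0.17) or MT+FAC replicate 3 (-0.16).

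**Figure D5:**
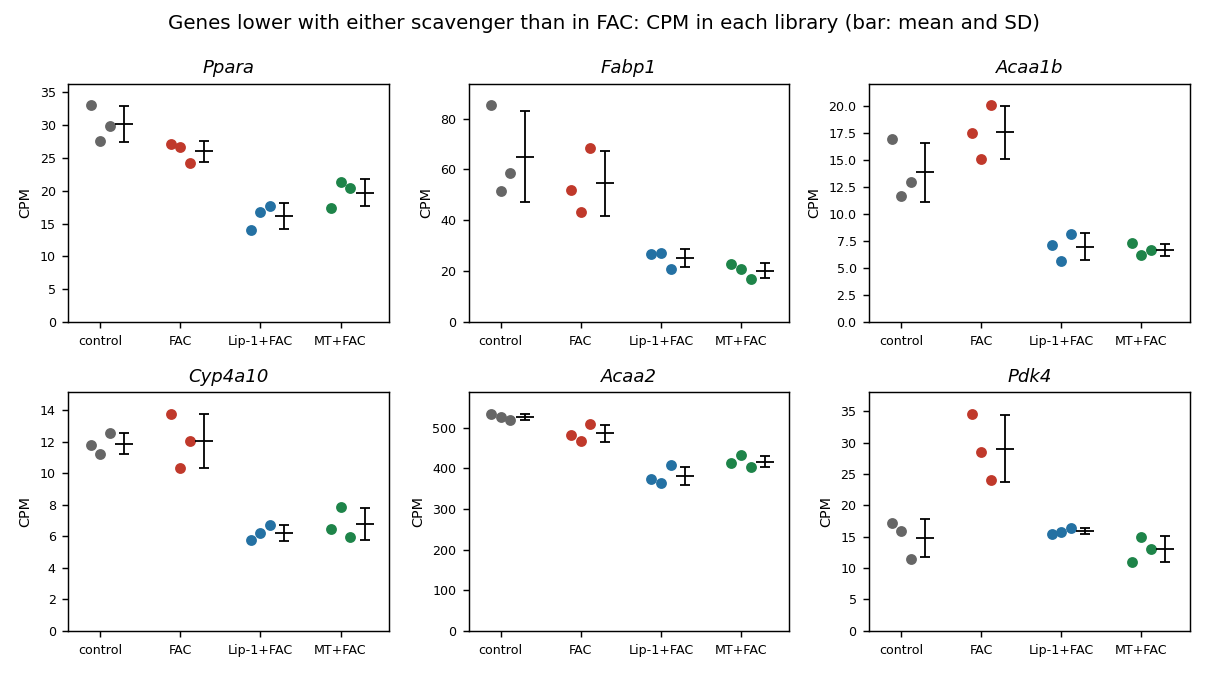
CPM in each library (points) with the mean and SD of each group for Ppara, Fabp1, Acaa1b, Cyp4a10, Acaa2 and Pdk4. In the first 5 panels all 6 pretreated libraries lie below all control and FAC libraries, and in the Pdk4 panel the 3 FAC libraries lie above all others.

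Pdk4 fell back to 15.5, 15.8 and 16.41 CPM with liproxstatin-1 and 11, 15.02 and 13.08 with Mito-TEMPO. The changes from FAC were -0.87 ± 0.15 (adjusted p = 0.000263) and -1.16 ± 0.15 (adjusted p = 2.22e-05), and the differences from control of 0.10 ± 0.16 and -0.19 ± 0.16 did not pass. Pdk1, another pyruvate dehydrogenase kinase, also rose in FAC, by 0.36, and with the scavengers fell by 1.09 and 0.96 on the log2 scale, and lay below control by -0.73 and -0.60. Acadl, Hadha, Cyp4a14 and Etfb passed in none of these comparisons, apart from the exceptions given for them. Acadl differed from FAC by 0.04 and -0.07, and Hadha by 0.08 and 0.09. Cyp4a14 read 3.457, 3.932 and 4.187 CPM in Lip-1+FAC and 3.876, 3.866 and 3.973 in MT+FAC, below every control library, with differences from control of -0.36 ± 0.16 and -0.35 ± 0.16.

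Against control, 3 of the 35 genes were higher and 10 lower in Lip-1+FAC, where 30.2% of all genes were called, 15.4% higher and 14.8% lower. In MT+FAC 1 was higher and 11 were lower, where 19.8% of all genes were called, 9.71% higher and 10.1% lower. Of the 18 genes raised from FAC with liproxstatin-1, 13 did not pass against control, and of the 19 raised with Mito-TEMPO, 16 did not. Groups did not overlap for 18 and 17 of the 35 genes, against 43.3% and 38.2% of all genes. Beside the genes above, Acsl1 and Eci2 were partly raised and remained lower than control, Acsl1 by -0.25 and -0.28 and Eci2 by -0.38 and -0.37 with liproxstatin-1 and Mito-TEMPO. The Acsl1 call was lost without Lip-1+FAC replicate 1 (-0.19). Acat1 exceeded control by 0.43 ± 0.094 and 0.33 ± 0.094. The second of these was lost without control replicate 1 (0.28) or MT+FAC replicate 1 (0.28). Acot2 (0.42 ± 0.12) and Hsd17b4 (0.17 ± 0.055) exceeded control with liproxstatin-1. The Acot2 call was lost without control replicate 3 (0.35) or Lip-1+FAC replicate 1 (0.36), and the Hsd17b4 call without control replicates 1 (0.16) or 3 (0.17) or Lip-1+FAC replicate 3 (0.15). Acot1 differed from control by -0.92 and -0.94, which did not pass, but passed at -1.18 without Lip-1+FAC replicate 2. Hadhb differed from control by -0.09 and -0.15 and Crot with liproxstatin-1 by -0.12. With GC and length offsets these passed, at -0.25 and -0.22 for Hadhb and -0.23 for Crot, and Acads passed as higher than control in MT+FAC, at 0.23 (adjusted p = 0.0344) against 0.11 without them. Cpt1a (0.19) and Decr1 (0.25) passed as higher in MT+FAC without control replicate 2.

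Set out by step, the summed CPM showed how far each part of the pathway moved, as a description that is weighted to the abundant genes. The peroxisomal sum was 680.2 to 715.8 in control, 472.1 to 488.1 in FAC, 657.8 to 708.4 in Lip-1+FAC and 661.9 to 700.2 in MT+FAC. The carnitine shuttle went from 327.3 to 349.8 in control to 226.1 to 243.7 in FAC, and stood at 303.1 to 320.2 and 311.9 to 316.5 in the pretreated groups. In contrast the mitochondrial spiral, at 1894 to 1940 in control and 1697 to 1729 in FAC, read 1712 to 1787 and 1700 to 1768 with the scavengers. That sum holds the fall of Acaa2, its most abundant gene, together with the rises of Hadh, Hadhb, Acads and Echs1. The omega-oxidation pair, mostly Cyp4a10, summed to 16.24 to 17.48 in control, 13.81 to 18.23 in FAC, 9.206 to 10.91 in Lip-1+FAC and 9.931 to 11.76 in MT+FAC. The ketogenic pair summed to 45.84 to 54.81, 25.76 to 33.87, 61.73 to 73.54 and 60.32 to 66.17 in the same order.

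Between the scavengers, none of the 35 genes passed in edgeR, against 1.34% of all genes (0.465% higher and 0.879% lower in MT+FAC). Unadjusted p-values were under 0.05 for 4 of the 35, and DESeq2 called 0. The median of the 35 was -0.017 against 0.002 over all genes, and the groups did not overlap for 6 genes (Crat, Acadl, Acadm, Hadhb, Acot2 and Pdk4), against 19.8% of all genes. The differences ran from -0.42 ± 0.12 (SE, adjusted p = 0.107) for Acot2 to 0.29 ± 0.11 (adjusted p = 0.239) for Ppara. A p that misses the threshold does not show that the scavengers act alike. Acot2 passed with no filter on low counts (-0.41) and in a fit on the 6 pretreated libraries alone (-0.42). Over all genes 182 were called, and refits called 76 without Lip-1+FAC replicate 1, 77 without Lip-1+FAC replicate 2, 86 without MT+FAC replicate 2 and 74 without MT+FAC replicate 3.

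A wider list of 108 genes of the same pathways, outside the 35, had 99 genes tested. In FAC 54 of these were lower and 11 higher, with a median log2 fold change of -0.321, where 19.1% of all genes were lower and 17.5% higher. With liproxstatin-1, 51 were higher than in FAC and 14 lower (median 0.243), and with Mito-TEMPO 47 and 15 (median 0.213), where 20.7% and 21.2% of all genes were higher and 19.2% and 19.7% lower. These shares of all genes apply to the smaller lists below as well. Among 25 further genes of mitochondrial oxidation, 18 fell and 1 rose in FAC. Against FAC, 16 of them were higher and 0 lower with liproxstatin-1, and 15 higher and 1 lower with Mito-TEMPO. Of 18 further peroxisomal genes, 12 fell and 0 rose in FAC, and 14 were higher and 1 lower than in FAC with either scavenger. Of 8 further omega-oxidation genes, 5 fell and 0 rose in FAC (median -0.418). Of the members Cyp4a10 (0.02 ± 0.13) and Cyp4a14 (-0.39 ± 0.16) neither passed there, and Cyp4a14 lay near that median. Against FAC, 5 of the 8 were higher and 1 lower with liproxstatin-1, and 4 higher and 1 lower with Mito-TEMPO. Of 8 further ketone body genes, 1 rose and 3 fell in FAC (median 0.029), and 3 were higher and 3 lower than in FAC with either scavenger. Of 7 genes of pyruvate dehydrogenase control, 3 rose and 1 fell in FAC. Against FAC, 2 of the 7 were higher and 3 lower with liproxstatin-1, and 1 higher and 3 lower with Mito-TEMPO.

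Partners and coregulators of PPARA did not move in 1 direction, with 5 of 14 higher and 5 lower in FAC, against 17.5% and 19.1% of all genes. Rxra, the DNA-binding partner, changed by -0.56 ± 0.17 in FAC, a call lost without control replicate 1 (-0.45), control replicate 2 (-0.48), FAC replicate 1 (-0.46) or FAC replicate 2 (-0.52), with no filter on low counts (-0.55) and in a fit on the 6 control and FAC libraries alone (-0.55). Its differences from FAC with the scavengers were 0.30 and 0.39 and did not pass. The second passed with DESeq2 (0.39) and without FAC replicate 3 (0.53), and both passed in fits on the 6 compared libraries alone (0.30 and 0.39). Ppargc1a, a coactivator, changed by -0.55 in FAC and by 0.59 and 0.37 from FAC with liproxstatin-1 and Mito-TEMPO. The last of these was lost without FAC replicate 2 (0.33) or 3 (0.31) or MT+FAC replicate 1 (0.30) or 2 (0.39).

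Among 19 tested PPARA target genes outside the pathway steps, 10 fell and 1 rose in FAC, against 19.1% and 17.5% of all genes. With liproxstatin-1, 7 were higher than in FAC and 2 lower, and with Mito-TEMPO 7 and 3, which are not all the same genes. Angptl4, a secreted inhibitor of lipoprotein lipase, read 146.1, 172.2 and 157.8 CPM in control, 75.92, 82.95 and 81.51 in FAC, 79.61, 80.32 and 82.51 in Lip-1+FAC and 124.8, 122.9 and 124 in MT+FAC. It differed from FAC by 0.01 ± 0.063 with liproxstatin-1 and rose by 0.63 ± 0.063 with Mito-TEMPO, and the 2 pretreated groups differed by 0.62 ± 0.063 (adjusted p = 5.72e-05). Of the 99 genes, 3 others differed between the scavengers, named after their values were seen. They were G0s2, an inhibitor of fat breakdown (0.90 ± 0.204), the acyl-CoA synthetase Acsl3 (-0.28 ± 0.0613) and the monocarboxylate transporter Slc16a7 (-0.29 ± 0.0687). Fgf21, a fasting hormone of the liver, differed by -0.80 ± 0.42 in FAC, which did not pass, and was raised by 1.67 and 1.28. The latter was lost without FAC replicates 1 (1.26), 2 (1.16) or 3 (1.40) or MT+FAC replicates 1 (0.96) or 3 (1.24). Plin2, which coats lipid droplets, rose by 0.27 in FAC, from 984.8 ± 77.6 to 1185 ± 41.8 CPM, a call lost without control replicate 1 (0.20). Its differences from FAC of -0.08 with liproxstatin-1 and -0.185 with Mito-TEMPO did not pass. The second passed in several refits, among them GC and length offsets (-0.28), the replicate block (-0.19) and the stranded columns (-0.21).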

How the data were processed

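The authors deposited raw, unnormalized read counts for each gene, made with STAR on GRCm38, per the submitters' processing notes; the version and annotation are not given in the sources used here. Per the labels' protocols, cDNA came from SMART-Seq v4 and libraries from Nextera XT, which keep no strand, so the unstranded column was used and reads on overlapping genes are lost. Names, coordinates and lengths come from GENCODE M21 (260 of 55487 identifiers did not match, with 0.00207% of counts). Genes were filtered with filterByExpr, scaled by TMM and tested in edgeR 4.0.16 (R 4.3.3), quasi-likelihood, 4 group means, 12 libraries, with Benjamini-Hochberg adjustment over 13535 genes at 0.05. Copies were searched with blastn 2.17.0+. Alternatives changed scaling, filter, test (DESeq2 1.42.0), libraries in the fit, depth, counting column, GC and length offsets and the replicate block. Groups and numbers come from the sample titles.

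All 35 genes are named with values. Values in every library are given for 12 genes of interest, for the 3 largest called rises and falls in FAC against control, each scavenger against FAC and between scavengers, and for a few others, and a few further pathway genes were chosen for naming, of which some are not reported here. The members and lists were chosen with earlier results of these data known.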

Additional observations from a re-analysis of the deposited data

How the results depend on the processing

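Of the calls above, those made under every alternative that tested the gene, including each library left out, numbered 21 of 25 genes in FAC against control, 21 of 24 and 20 of 26 with liproxstatin-1 and Mito-TEMPO against FAC, and 8 of 13 and 8 of 12 against control. With a filter at a mean CPM of 5, 31 of the 35 genes were tested, and Acot1 was not. One difference changed sign and passed: Echs1 in Lip-1+FAC against control was -0.16 with GC and length offsets (adjusted p = 0.0494). Between the scavengers, 1 of the 35 genes, Acot2, was called with no filter on low counts, with the replicate block plus GC and length offsets (-0.47) and with only the compared libraries. Over all genes the 182 calls became 477 with no filter, 428 with DESeq2, 312 with only the compared libraries and 74 to 156 with 1 library left out, and 34.6% of them were higher in MT+FAC, against 46.7% with upper-quartile scaling, 49.7% with no filter, 45.6% with DESeq2, 17.1% without Lip-1+FAC replicate 1 and 51.3% without MT+FAC replicate 1. The causes were not tested. Leaving out 1 library gave 23 to 26, 23 to 24, 24 to 26, 0, 10 to 14 and 9 to 14 called members, in the order FAC against control, liproxstatin-1 and Mito-TEMPO against FAC, Mito-TEMPO against liproxstatin-1, and liproxstatin-1 and Mito-TEMPO against control. No pairing by replicate number was seen, though the labels do not say what a number marks. Deviations of same-numbered libraries correlated at -0.249 to 0.164, over 0.1 in 3 of 18 pairs, and 4 of 12 libraries correlated best with their own number. With the replicate block, 26, 23, 26, 0, 13 and 12 members were called in the same order. In that fit Acaa1b passed in FAC against control (0.35, adjusted p = 0.0426), and the calls of Crat in Lip-1+FAC against FAC (0.18, adjusted p = 0.0575) and of Rxra in FAC against control (-0.55, adjusted p = 0.0506) were lost. Acot1 had 11 reads in its lowest library, so counting error weighs on its values.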
